A study of Mus musculus with 8 samples.

Results

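Glutamine feeds the tricarboxylic acid (TCA) cycle of a dividing T cell through a short chain of enzymes, and 9 of the genes for these and related enzymes are described here, chosen by name and mapped to their Ensembl identifiers (GRCm38, release 96): *Gls2*, *Glud1*, *Got1*, *Got2*, *Gpt2*, *Pcx*, *Me2*, *Idh1* and *Idh2*. They are 9 of the 55536 genes in the count tables, and all 9 were among the 11189 genes that passed the filter on low counts. The mRNA of OT-1 CD8+ T cells was sequenced. The single transgenic receptor of these cells recognises SIINFEKL, a peptide of ovalbumin, and both groups share a C57BL/6 and Rag-1 knockout background. Lymph node cells from donors of 5 to 12 weeks were activated with 100 nM peptide for 2 days and then kept for 2 days in 20 ng/ml IL-2 with either 10 µM GC7 or the acetic acid vehicle (Mock). GC7 is a spermidine analogue that inhibits deoxyhypusine synthase and so blocks the hypusination of the translation factor eIF5a, and the study describes effects of the drug beyond that enzyme. There were 4 Mock and 4 GC7 libraries, and the question asked of them is which enzyme mRNAs differed in abundance after the drug. The study calls the replicates biological, but the sample labels do not say that each came from its own animal, so p-values measure the spread between these libraries.

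Glutaminases split the amide from glutamine to give glutamate in the mitochondrion. Glutamate is turned into 2-oxoglutarate, a TCA cycle intermediate, either by glutamate dehydrogenase, which releases ammonia, or by aminotransferases, which pass the amino group to oxaloacetate or pyruvate and so make aspartate or alanine. Refilling the cycle in this way, or by carboxylating pyruvate, is called anaplerosis, and malic enzyme and the NADP-dependent isocitrate dehydrogenases carry carbon out of or around the cycle while they make reducing power. Activated T cells are known for their high use of glutamine.

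In GC7-treated cells 4 of the 9 mRNAs were lower by more than 2-fold. They encode the mitochondrial malic enzyme (*Me2*), the cytosolic NADP-dependent isocitrate dehydrogenase (*Idh1*), the liver-type glutaminase (*Gls2*) and pyruvate carboxylase (*Pcx*). *Glud1* and *Got1* were lower by smaller amounts, *Gpt2* was higher, and *Got2* and *Idh2* were not called at a false discovery rate (FDR) of 0.01. Thus 6 of 9 were called lower, against 23.5% of all genes tested, and 1 of 9 was called higher, against 23.0% of all genes tested. With libraries scaled by their totals, 5 of 9 were called lower and 1 higher, against 18.4% and 29.9% of all genes. Lower by more than 2-fold were 4 of 9, against 5.24% of all genes tested, and none was higher by more than 2-fold, against 3.14%. The 9 genes were chosen with earlier results of these data known, so these shares are descriptions and no independent support. The median log2 fold change was -0.34 over the 9 mRNAs and 0.02 over all 11189 genes. Values are given as CPM, the reads of a gene scaled by the size of its library and by TMM factors. Changes are log2 fold changes, GC7 minus Mock, from edgeR's quasi-likelihood test, with Benjamini-Hochberg adjusted p-values over all genes tested. The RNA came from bulk cultures, in which fewer cells of a type and less RNA per cell cannot be told apart.

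**Figure D1:**
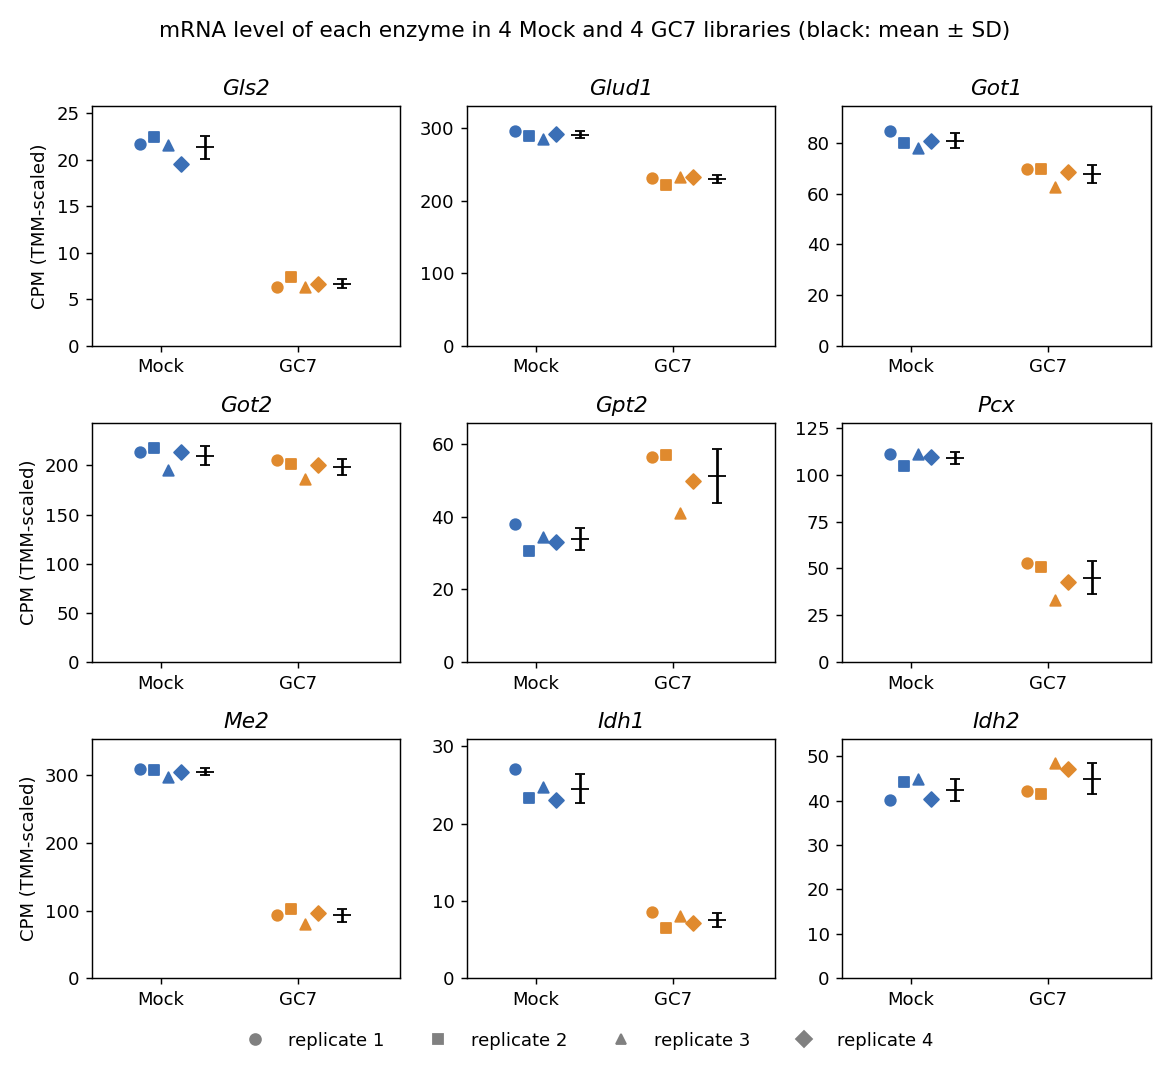
TMM-scaled CPM of each enzyme mRNA (vertical axes, all from 0) in the 4 Mock (blue) and 4 GC7 (orange) libraries, with marker shapes for the replicate numbers and the mean ± SD in black. The groups are apart in 7 panels, while the *Got2* and *Idh2* values overlap, and GC7 replicate 3 has the lowest GC7 value for *Got1*, *Got2*, *Gpt2*, *Pcx* and *Me2*.

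*Gls2* (ENSMUSG00000044005, chr10:128194457-128210004, plus strand) encodes the liver-type glutaminase, the step from glutamine to glutamate. Its level was 21.7, 22.5, 21.5 and 19.5 CPM in Mock replicates 1 to 4. In GC7 replicates 1 to 4 it was 6.33, 7.37, 6.36 and 6.60 CPM. Every GC7 library lay far below every Mock library, and the GC7 level was 31.6% of the Mock level (95% interval 27.3% to 35.8%, n = 4 per group). This is a log2 fold change of -1.66 ± 0.09 (SE), with an adjusted p of 1.9e-08 (edgeR). These values rest on 390 to 529 reads per Mock library and 114 to 162 reads per GC7 library. The exons of *Gls2* share 97 bases with *Spryd4* on the opposite strand, and the strand setting of the counting is not given in the sources used here. *Spryd4* moved the other way, with 535 summed reads in Mock and 925 in GC7.

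*Glud1* (ENSMUSG00000021794, chr14:34310727-34345265, plus strand) encodes mitochondrial glutamate dehydrogenase. Mock libraries held 296.2, 289.4, 285.3 and 291.8 CPM. GC7 libraries held 230.4, 221.3, 232.4 and 233.0 CPM. The spread within each group was narrow, with a coefficient of variation of 1.56% in Mock and 2.37% in GC7, and no GC7 value reached the Mock range. The level fell to 78.9% of Mock (interval 72.8% to 85.4%), a log2 fold change of -0.34 ± 0.05 (SE, adjusted p = 1.4e-04, edgeR).

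The aspartate aminotransferases form a pair, *Got1* in the cytosol (ENSMUSG00000025190, chr19:43499752-43524605, minus strand) and *Got2* in the mitochondrion (ENSMUSG00000031672, chr8:95864134-95888547, minus strand). *Got1* was at 84.8, 79.9, 78.0 and 81.0 CPM in Mock and at 69.8, 69.9, 62.6 and 68.8 CPM in GC7. All GC7 values were below all Mock values, and GC7 replicate 3 stood apart at the bottom. The log2 fold change was -0.26 ± 0.06 (SE, adjusted p = 0.00308, edgeR), which leaves 83.8% of the Mock level. This call was lost when libraries were scaled by their totals (log2 fold change -0.16, adjusted p = 0.0431) and without Mock replicate 1 (-0.24, adjusted p = 0.0101).

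*Got2* was at 213.2, 217.4, 195.7 and 213.7 CPM in Mock and at 204.9, 201.3, 186.1 and 200.7 CPM in GC7. The ranges overlapped, with Mock replicate 3 inside the GC7 range. The log2 fold change was -0.08 with a 95% interval from -0.21 to 0.05 (adjusted p = 0.252, edgeR), that is, a GC7 level between 86.3% and 103% of the Mock level. Its sign turned to 0.012 when libraries were scaled by their totals (adjusted p = 0.871). The ratio of *Got1* to *Got2* reads was 0.386 ± 0.0151 in Mock and 0.342 ± 0.00455 in GC7, a log2 difference of -0.17, and the lowest Mock ratio of 0.367 lay above the highest GC7 ratio of 0.347.

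*Gpt2* (ENSMUSG00000031700, chr8:85492576-85527560, plus strand) encodes the mitochondrial alanine aminotransferase, which makes alanine and 2-oxoglutarate from pyruvate and glutamate. It was the only one of the 9 called higher. Mock libraries held 37.9, 30.6, 34.3 and 32.9 CPM. GC7 libraries held 56.3, 57.0, 41.0 and 49.9 CPM. The groups did not overlap, but GC7 replicate 3 lay close to the highest Mock library, and the coefficient of variation in GC7 was 14.5%. The log2 fold change was 0.59 ± 0.11 (SE, adjusted p = 4.2e-04, edgeR), a 1.51-fold rise with an interval from 129% to 177% of the Mock level.

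*Pcx* (ENSMUSG00000024892, chr19:4510472-4621752, plus strand) encodes pyruvate carboxylase, the biotin enzyme that makes oxaloacetate from pyruvate. It was at 111.2, 104.5, 111.1 and 109.6 CPM in Mock and at 52.8, 50.8, 33.4 and 42.7 CPM in GC7. The Mock libraries lay close together, while the GC7 libraries spread over the widest relative range of any of the 9 mRNAs, with a coefficient of variation of 19.7%. The fall was to 41.3% of Mock (interval 34.6% to 49.1%), a log2 fold change of -1.28 ± 0.12 (SE, adjusted p = 1.7e-06, edgeR). Without GC7 replicate 3, the lowest library, it was -1.15.

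*Me2* (ENSMUSG00000024556, chromosome 18) encodes the mitochondrial NAD-dependent malic enzyme, which turns malate into pyruvate. In the main fit *Me2* had the largest fall of the 9. Without Mock replicate 2, Mock replicate 4, GC7 replicate 1 or GC7 replicate 3, *Idh1* fell further. For example, without GC7 replicate 3 the log2 fold change was -1.71 for *Idh1* and -1.64 for *Me2*. The *Me2* level was 309.7, 306.8, 297.8 and 304.8 CPM in Mock replicates 1 to 4. After GC7 it was 93.3, 102.7, 79.6 and 96.3 CPM. In Mock its coefficient of variation was 1.66%, and the highest GC7 library lay far below the lowest Mock library. It fell by a log2 fold change of -1.71 ± 0.08 (SE, adjusted p = 3.7e-09, edgeR), which leaves 30.5% of the Mock level (interval 27.2% to 34.2%).

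The other malic enzyme genes were at low counts. Cytosolic *Me1*, which makes NADPH, had 43, 37, 45 and 24 reads in Mock and 1, 4, 2 and 2 reads in GC7. It was under the filter of the main comparison and was named after its values were seen. The summed Mock level was 16.5-fold the GC7 level, with an exact counting interval from 8.48 to 36.9 that covers counting error only. With edgeR's filterByExpr rule, which keeps 14517 genes, its log2 fold change was -3.21 ± 0.39 (SE, adjusted p = 1.5e-06). *Me1* passed that rule only through the Mock libraries, where it was higher, so this p-value is a description and no independent support. *Me3* had 0 reads in all Mock libraries and at most 1 in a GC7 library.

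The NADP-dependent isocitrate dehydrogenases interconvert isocitrate and 2-oxoglutarate in the cytosol (*Idh1*, ENSMUSG00000025950, chr1:65158616-65186500, minus strand) and in the mitochondrion (*Idh2*, ENSMUSG00000030541, chr7:80094846-80115392, minus strand). *Idh1* was at 27.1, 23.3, 24.7 and 23.0 CPM in Mock and at 8.62, 6.51, 8.04 and 7.14 CPM in GC7. Every GC7 library was far below the Mock range, and the log2 fold change was -1.69 ± 0.10 (SE, adjusted p = 4.9e-08, edgeR), which leaves 31.1% of the Mock level. These values rest on 459 to 548 reads per Mock library and 143 to 177 per GC7 library.

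*Idh2* was at 40.1, 44.3, 44.9 and 40.3 CPM in Mock and at 42.2, 41.6, 48.5 and 47.2 CPM in GC7. The GC7 values began inside the Mock range and ended above it. The log2 fold change was 0.08 with an interval from -0.08 to 0.24, and it was not called (adjusted p = 0.372, edgeR). The ratio of *Idh1* to *Idh2* reads was 0.676, 0.526, 0.550 and 0.571 in Mock and 0.204, 0.157, 0.166 and 0.151 in GC7. That is a 3.44-fold lower ratio and a log2 difference of -1.78.

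**Figure D2:**
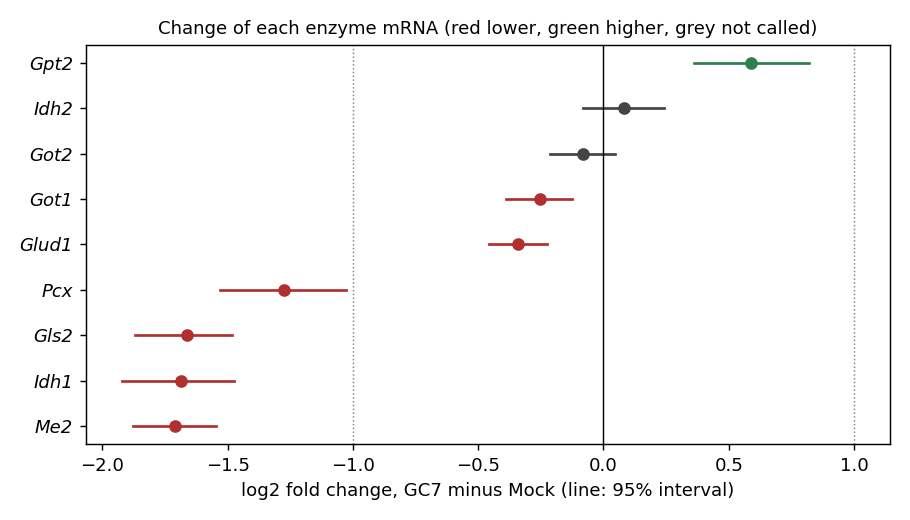
Log2 fold change of each enzyme mRNA, GC7 minus Mock, as points with 95% intervals, with dotted lines at a 2-fold change, red for called lower, green for called higher and grey for not called. *Me2*, *Idh1*, *Gls2* and *Pcx* lie entirely left of the 2-fold line, and the intervals of *Got2* and *Idh2* span 0.

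The GC7 and Mock values did not overlap for 7 of the 9 mRNAs, against 55.6% of all genes tested. Within a library, a ratio of reads does not depend on scaling between libraries. For both ratios, *Got1* to *Got2* and *Idh1* to *Idh2*, the 2-sided exact permutation test gave p = 0.0286 each, which is the smallest p that 4 against 4 libraries allow, and p = 0.0286 after adjustment over the 2 ratios. A ratio of reads depends on the lengths of both mRNAs as well as on their levels, so that its change between the groups can be read and its size cannot.

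**Figure D3:**
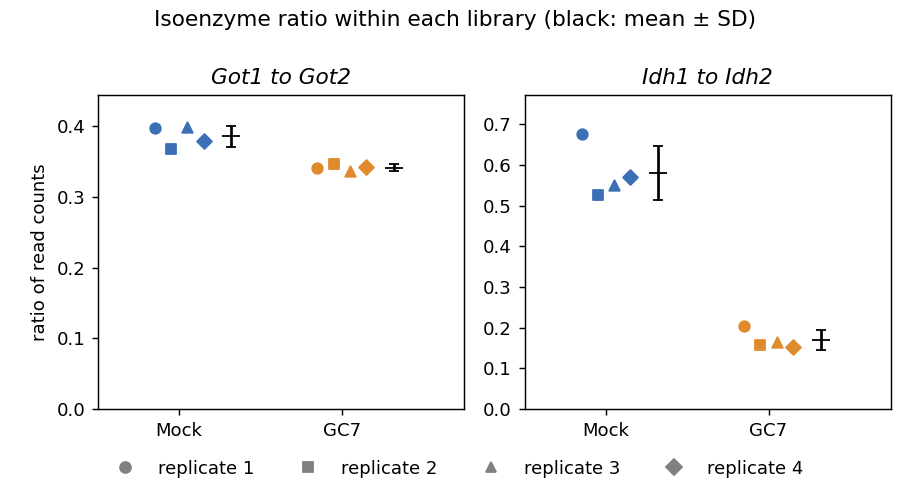
Ratio of read counts of *Got1* to *Got2* and of *Idh1* to *Idh2* within each library (vertical axes from 0), with the mean ± SD in black. All 4 GC7 ratios lie below all 4 Mock ratios in each panel. Between the mean log2 ratios, GC7 is 3.44-fold lower for the isocitrate dehydrogenases and 1.13-fold lower for the aspartate aminotransferases.

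The upstream sequence of 3 genes is shown because they include the falling *Pcx* and *Idh1* and the rising *Gpt2*. The sequences are from RefSeq (GRCm38.p6), read 5′ to 3′ on the strand of the gene and ending before the transcribed part. Capitals mark matches on either strand to CCAAT (the CCAAT box, in 33.9% of the 32851 promoter windows of 250 bases), GGGCGG (the GC box, in 32.7%), CACGTG (an E-box, in 6.02%) and TGATGNAA (a CARE, the element read by ATF4 and its C/EBP partners, in 3.45%). Adjoining matches run together where they touch.
*Pcx*, chr19:4510222-4510471, plus strand: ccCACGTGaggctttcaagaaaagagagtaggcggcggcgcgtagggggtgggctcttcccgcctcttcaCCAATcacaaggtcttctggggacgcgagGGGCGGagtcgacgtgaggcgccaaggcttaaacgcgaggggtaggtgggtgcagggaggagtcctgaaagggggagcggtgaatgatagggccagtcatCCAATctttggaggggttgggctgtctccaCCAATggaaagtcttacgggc
*Idh1*, chr1:65186501-65186729, minus strand: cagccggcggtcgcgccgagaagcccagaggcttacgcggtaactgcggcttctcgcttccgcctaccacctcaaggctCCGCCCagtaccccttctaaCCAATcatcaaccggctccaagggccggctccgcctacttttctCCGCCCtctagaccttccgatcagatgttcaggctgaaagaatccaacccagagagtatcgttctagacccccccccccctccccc
*Gpt2*, chr8:85492326-85492575, plus strand: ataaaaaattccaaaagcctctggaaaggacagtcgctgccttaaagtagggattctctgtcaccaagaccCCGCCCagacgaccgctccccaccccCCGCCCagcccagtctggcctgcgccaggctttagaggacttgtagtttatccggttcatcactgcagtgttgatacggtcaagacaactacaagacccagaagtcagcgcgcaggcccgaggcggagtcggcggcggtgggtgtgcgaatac
The *Pcx* sequence holds 3 CCAAT boxes, 1 GC box and 1 E-box, the *Idh1* sequence 1 CCAAT box and 2 GC boxes, and the *Gpt2* sequence 2 GC boxes. Of the other members with an entry, *Got1* had 5 CCAAT boxes and the 1 CARE match among the 7 members searched, and *Glud1* had 3 GC boxes. The windows of *Idh1*, *Idh2* and *Got2* reach 21, 42 and 146 bases into the annotated gene. All *Idh1* matches lie in the 229 bases printed, against the 250 bases behind the shares, and the matches of *Idh2* and *Got2* are not given. A match is a run of letters only, and binding was not measured in these data.

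Levels of different genes were compared per kilobase of annotated exon. In Mock cells the order was *Glud1* (69.0 ± 1.08 CPM per kb, SD, n = 4), *Got2* (43.5 ± 2.01), *Me2* (42.0 ± 0.696), *Got1* (31.9 ± 1.13), *Pcx* (23.0 ± 0.668), *Idh2* (16.4 ± 0.982), *Idh1* (8.85 ± 0.678), *Gls2* (6.14 ± 0.362) and *Gpt2* (6.02 ± 0.544). The library ranges of *Got2* and *Me2* overlapped, as did those of *Gls2* and *Gpt2*. In GC7 cells the order was *Glud1* (54.5 ± 1.29), *Got2* (41.1 ± 1.72), *Got1* (26.7 ± 1.38), *Idh2* (17.3 ± 1.35), *Me2* (12.8 ± 1.34), *Pcx* (9.45 ± 1.86), *Gpt2* (9.05 ± 1.32), *Idh1* (2.73 ± 0.337) and *Gls2* (1.92 ± 0.140). There the ranges of *Me2* and *Pcx*, and of *Pcx* and *Gpt2*, overlapped. *Me2* moved from rank 3 to rank 5 and *Gpt2* from rank 9 to rank 7.

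This order depends on the length assigned to each gene, and the isoforms in use were not measured. With the length of the longest protein-coding transcript, an alternative added after seeing the data, *Me2* came out highest in Mock at 116 ± 1.91 CPM per kb, above *Glud1* (85.7 ± 1.34) and *Got2* (83.0 ± 3.84). After GC7 *Got2* then came highest at 78.4 ± 3.29, followed by *Glud1* (67.6 ± 1.60) and *Me2* (35.2 ± 3.69), whose range overlapped that of *Got1* (32.9 ± 1.70). *Idh1* and *Gls2* were at the bottom in GC7 under both lengths. The change of a gene between the groups does not depend on its length.

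**Figure D4:**
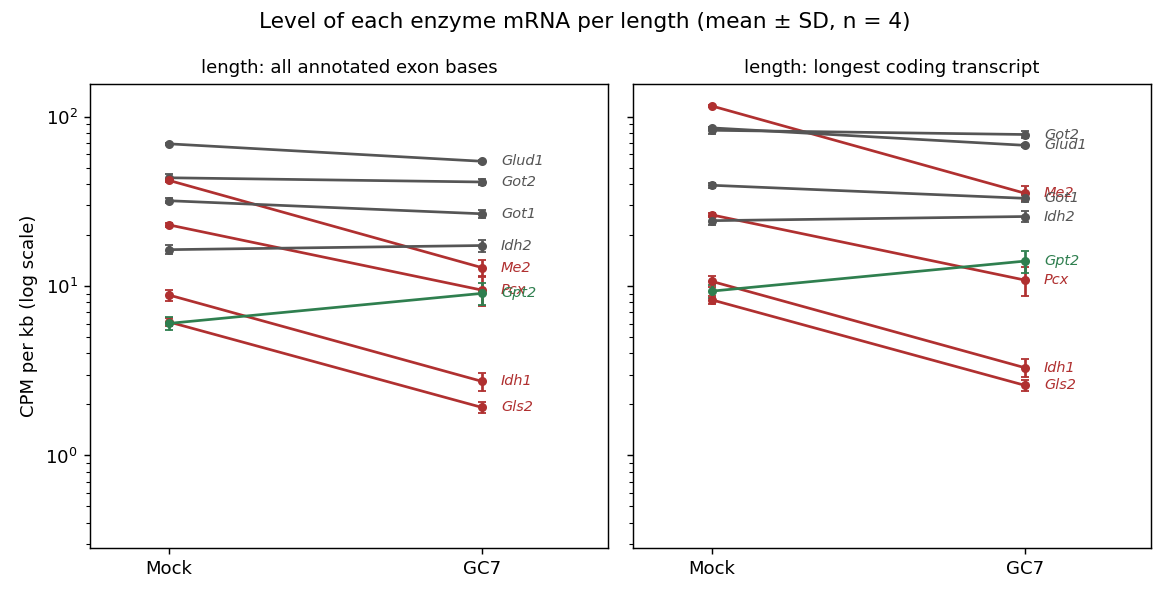
CPM per kb (log scale) of the 9 mRNAs in Mock and GC7 as mean ± SD of 4 libraries, with all annotated exon bases as the length on the left and the longest protein-coding transcript on the right. Red lines are the 4 mRNAs called lower by more than 2-fold, green is *Gpt2* and grey the other 4. In Mock *Me2* has rank 3 on the left and rank 1 on the right, and after GC7 it lies below *Got2* and *Glud1* in both panels.

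The surrounding pathway was described with 6 lists of 58 genes, of which 48 were tested. Of these 48, 10 were higher, 8 were lower and 30 were not called, and none of the 48 changed by more than 2-fold. That is 20.8% higher and 16.7% lower, against 23.0% and 23.5% of all genes tested, and the median log2 fold change over the 48 was 0.03. The counts of each list below stand beside these same shares of all genes. Scaling by library totals gave 14 higher and 6 lower, where the shares over all genes were 29.9% and 18.4%. Among the list genes under the filter, *Me1* was lower and *Got1l1* higher by more than 2-fold, at low counts. Their log2 fold changes with filterByExpr were -3.21 and 3.47.

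Of the 4 tested genes of glutamine uptake and synthesis, 2 were higher and none lower. *Slc38a1*, a sodium-coupled glutamine transporter, rose from 185.8 ± 21.1 to 281.1 ± 26.8 CPM (SD, n = 4), or by 0.60 on the log2 scale (adjusted p = 1.4e-04, edgeR). *Slc1a5*, which exchanges glutamine for other neutral amino acids, rose by 0.38 (adjusted p = 7.9e-04). *Glul*, glutamine synthetase, was not called at -0.15 (adjusted p = 0.0431).

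Of the 10 tested enzymes that use the amide of glutamine, 4 were higher and 2 lower. *Ctps*, a CTP synthase, rose from 49.5 ± 3.15 to 93.0 ± 4.72 CPM (0.91 on the log2 scale, adjusted p = 2.5e-07). The others called higher were the purine synthesis enzymes *Pfas* and *Ppat*, at 0.69 and 0.36, and asparagine synthetase *Asns*, at 0.55. The *Ppat* call was lost without Mock replicate 4, GC7 replicate 1 or GC7 replicate 2 (adjusted p of up to 0.0136). *Nadsyn1*, which makes NAD from its deamido precursor, fell from 19.3 ± 0.465 to 12.1 ± 0.817 CPM (log2 fold change -0.67, adjusted p = 1.5e-05), and *Ctps2*, the other CTP synthase gene, was called lower at -0.47. The CTP synthase genes thus changed in opposite directions.

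Among the 8 tested aminotransferases and other glutamate enzymes, *Bcat1*, the cytosolic branched-chain aminotransferase, was the only one called. It rose from 45.6 ± 4.64 to 84.3 ± 11.6 CPM (log2 fold change 0.89, adjusted p = 1.5e-05). *Gpt*, the cytosolic counterpart of *Gpt2*, was not called at -0.14 (adjusted p = 0.397). *Got1l1*, a relative of *Got1*, was under the filter and was named after its values were seen: it had 0, 2, 3 and 2 reads in Mock and 30, 30, 42 and 57 reads in GC7. With filterByExpr its log2 fold change was 3.47 ± 0.45 (SE, adjusted p = 2.1e-06). *Got1l1* passed that rule only through the GC7 libraries, where it was higher, so this p-value is a description and no independent support. The size of the change rests on very few Mock reads.

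Of the 8 tested mitochondrial carriers, 3 were lower and none higher. *Slc25a1*, which exports citrate, fell from 119.1 ± 3.51 to 61.1 ± 4.46 CPM (log2 fold change -0.96, adjusted p = 1.3e-07). *Slc25a11*, which exchanges 2-oxoglutarate for malate, fell by 0.60, and the dicarboxylate carrier *Slc25a10* fell by 0.54. The aspartate-glutamate carriers *Slc25a12* and *Slc25a13* were at 0.06 and -0.09 and were not called. In the malate-aspartate shuttle, which moves reducing equivalents into the mitochondrion, 3 of 7 genes were lower (*Got1*, *Mdh1* and *Slc25a11*) and none was higher, where 23.5% of all genes tested were lower. With libraries scaled by their totals, the *Got1* and *Mdh1* calls were lost (adjusted p = 0.0431 and 0.0147, edgeR), which leaves 1 of 7.

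Among the other 7 tested anaplerotic and cataplerotic enzymes, 2 were higher and 1 lower. *Acly*, which splits the exported citrate into acetyl-CoA and oxaloacetate, fell from 460.9 ± 36.1 to 255.1 ± 24.4 CPM (log2 fold change -0.85, adjusted p = 3.2e-06). *Pcca*, a subunit of propionyl-CoA carboxylase, rose from 17.8 ± 1.61 to 27.7 ± 1.63 CPM (0.64, adjusted p = 4.1e-05). *Hlcs*, which attaches biotin to carboxylases including pyruvate carboxylase, rose by 0.59 (adjusted p = 2.4e-04), the direction opposite to that of *Pcx*.

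Of the 11 TCA cycle genes next to these steps, 1 was higher and 2 were lower, all by small amounts. *Dld*, the shared dihydrolipoamide dehydrogenase subunit, rose from 74.8 ± 2.97 to 87.6 ± 1.68 CPM (0.23, adjusted p = 0.00373). *Mdh1*, cytosolic malate dehydrogenase, fell from 230.8 ± 15.6 to 186.0 ± 15.1 CPM (-0.31, adjusted p = 0.00291), and *Idh3g*, a subunit of the NAD-dependent isocitrate dehydrogenase, fell by 0.25 on the log2 scale. Each of these 3 calls was lost under at least 1 alternative, with adjusted p-values of up to 0.0213 for *Dld*, 0.0147 for *Mdh1* and 0.0284 for *Idh3g*. No tested gene of the 6 lists fell as far as *Me2*, *Idh1*, *Gls2* or *Pcx*. *Me1*, a list gene under the filter, fell further with filterByExpr (log2 fold change -3.21), from few reads.

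**Figure D5:**
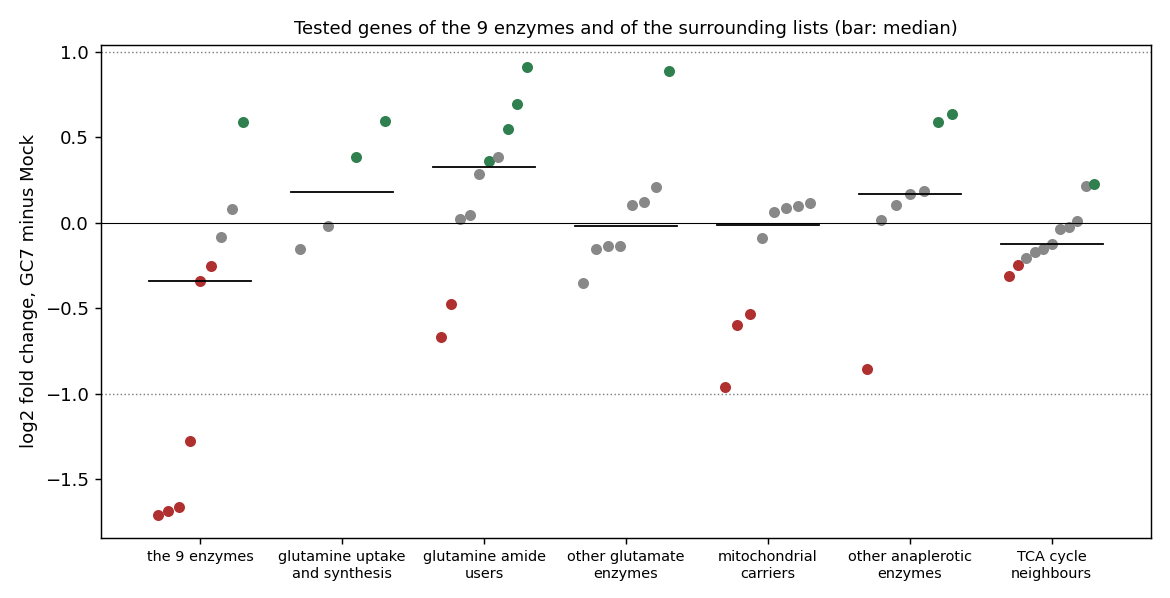
Log2 fold change, GC7 minus Mock, of the 9 enzymes and of the tested genes in the 6 surrounding lists, 1 point per gene, with the median as a bar and dotted lines at a 2-fold change. Red and green mark genes called lower and higher at an FDR of 0.01, and the only points below the lower 2-fold line are *Me2*, *Idh1*, *Gls2* and *Pcx*. List genes under the filter, among them *Me1* and *Got1l1*, are not shown.

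The genes whose log2 CPM ran most like *Me2* over the 8 libraries were *Egln3*, *Gbe1* and *Pgghg*, each with a Pearson r of 0.999. The genes most like *Gpt2* were *Riok2* (r = 0.995), *Nedd9* (0.992) and *Gart* (0.991). These correlations were taken over 10192 protein-coding genes and are descriptions, in which the groups and the scaling factors are shared by all genes.

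Library totals ranged from 20045041 to 25284730 reads in Mock and from 17528776 to 23449164 in GC7, and GC7 replicate 3 was the shallowest library. All 8 CD8 T cell markers had at least 3529 reads in every library, and *Cd4* had at most 9. The summed level of the CD8 T cell markers was 7245 to 8671 CPM in Mock and 4913 to 6494 CPM in GC7, and more of it was *Gzmb* than any other marker, with a mean of 4438 CPM in Mock and 2907 CPM in GC7. Of the 8, 5 were called lower, among them *Lck*, *Cd2* and *Gzmb* at log2 fold changes of -0.64, -0.61 and -0.61, and 1 was called higher, *Cd8a* at 0.48. Over all genes tested, 23.5% were called lower and 23.0% higher. The summed level of 5 B cell markers was 7.02 to 10.1 CPM in Mock and 4.63 to 5.93 CPM in GC7, with *Ms4a1* and *Pax5* at 0 reads in every library. The 8 myeloid and dendritic cell markers summed to 103 to 127 CPM in Mock and 73.0 to 96.3 CPM in GC7, and 5 of them had at most 9 reads in any library. Most of that sum was *Cst3*, at 88.9 to 111 CPM in Mock, and *Xcr1*, a chemokine receptor, had a log2 fold change of -2.84 (adjusted p = 1.8e-07, edgeR). The 4 stromal and endothelial markers summed to 51.5 to 56.2 CPM in Mock and 30.3 to 32.3 CPM in GC7, nearly all of it *Pecam1* (50.5 to 55.7 and 30.0 to 31.9 CPM), while *Ccl19* was at 0 reads, *Pdpn* had at most 7 and *Col1a1* at most 22 reads in any library. The part of these cell types in the enzyme results was not tested.

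Near-identical copies were found for 3 of the 9 genes. *Glud1* matched 2 such genes, *Got2* matched 5 and *Gpt2* matched 1. Among those of *Got2*, *Gm45760* lies at the *Got2* locus itself, on the opposite strand with 434 shared exon bases, and so is no separate copy. *Gm8704* and *Gm3922* matched *Got2* at 90.3% over 435 bases. None of the matched genes held more than 36 reads in a library, against at least 657 reads for the enzyme genes themselves. How the counting treated reads that match several positions is not given in the sources used here.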

How the data were processed

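RNA was sequenced from 4 Mock and 4 GC7 libraries, and each library's group and replicate number came from its label. The authors deposited raw read counts per Ensembl gene, 1 table per library, without normalisation or pooling. To make them, the authors trimmed reads with Cutadapt, aligned them to GRCm38 with STAR and counted them with featureCounts. The strand setting and the handling of reads with several matches, which affect overlapping genes and near-identical copies, are not given in the sources used here. All 55536 identifiers matched the GENCODE M21 annotation (Ensembl release 96).

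The filter on low counts asked for over 3 CPM in 4 or more libraries, which corresponds to 52.6 to 75.9 reads. Changes were fitted with edgeR (version 4.0.16, R version 4.3.3), with TMM factors, group as the only term, a prior count of 2, the quasi-likelihood test and p-values adjusted over 11189 genes by the Benjamini-Hochberg method. Calls used an FDR under 0.01. Ratios of counts within libraries were compared by 2-sided exact permutation tests. On simulated data for this comparison (11189 genes), the edgeR test recovered 99 of 100 genes with a log2 change of 1.5 and 92 of 100 with 0.7, and called 2 unchanged genes. Far fewer genes changed there than were called in the data, equally up and down, so the scaling was not tested. Changes smaller than 0.7 were not simulated.

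The alternatives were RLE factors, library totals, TMM factors without mitochondrially encoded genes, no filter, filterByExpr, DESeq2 (version 1.42.0), limma-voom (limma version 3.58.1), a replicate block, 0.5 added to each count for ratios, each library left out, and transcript length, the last added after seeing the data. Copies were searched with BLAST (version 2.17.0, at least 200 bases and 90% identity). Promoter windows of 250 bases came from RefSeq, with entries used for 7 of the 9 genes, and bases inside the annotated gene were left out of the printed sequence. Named are the 9 genes, the gene with the largest fall and the largest rise among called genes of each list, and the 3 genes most like *Me2* and *Gpt2*. Some items of this rule, and a ratio with one of them, are not reported here. Other list members with values were named after their values were seen. The 9 genes and the lists were chosen with earlier results of these data known.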

Additional observations from a re-analysis of the deposited data

Results flagged for a closer look

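In 40 groups of 4 libraries examined, 1 had a library that stood apart, with its distance from the next library taking up more of the group's range than Dixon's 95% critical value allows. Chance gives about 1 in 20 groups, or 2 of 40. *Got1* in GC7 had a ratio of 0.848, with GC7 replicate 3 at 62.6 CPM below the other GC7 libraries at 68.8 to 69.9 CPM. Without that library the log2 fold change of *Got1* was -0.21 and the call held (adjusted p = 0.00659, edgeR).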

How the results depend on the processing

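Among the alternative log2 fold changes of the 9 enzymes, 3 changed a call or a sign. The counts of the 9 enzymes called, and of the genes of the 6 lists called, stayed within 1.5 times their values where run. The list counts were not run for TMM factors without mitochondrially encoded genes, no filter, filterByExpr or limma-voom. With library totals the malate-aspartate shuttle genes called lower went from 3 to 1 of 7. Scaling by library totals, which moves the median of all genes by 0.0936, took the *Got1* log2 fold change to -0.16 and that of *Got2* to 0.012, and leaving out Mock replicate 1 took *Got1* to -0.24. The cause was not tested. The genes of the 6 lists called lower and higher numbered 6 and 14 with library totals and 11 and 13 with DESeq2. With 1 library left out in turn, the log2 fold changes ranged from -1.76 to -1.64 for *Me2*, -1.75 to -1.62 for *Idh1*, -1.71 to -1.64 for *Gls2*, -1.36 to -1.15 for *Pcx*, -0.36 to -0.32 for *Glud1*, -0.28 to -0.21 for *Got1*, -0.13 to -0.05 for *Got2*, 0.04 to 0.12 for *Idh2* and 0.54 to 0.69 for *Gpt2*. The enzymes called lower then numbered 5 to 6, and the genes of the 6 lists called lower and higher 6 to 9 and 8 to 14. Libraries with the same replicate number deviated from their group means with a mean r of 0.0440 (-0.18 to 0.27, above 0.1 in 2 of 4 pairs). For different numbers the mean r was -0.020 (-0.31 to 0.42, above 0.1 in 2 of 12 pairs). With 4 same-number pairs this cannot decide whether the numbers pair the libraries, and the main fit did not pair them. A replicate block gave -1.72 for *Me2*, -1.30 for *Pcx*, -0.26 for *Got1* and 0.58 for *Gpt2*, with 6 enzymes lower and 1 higher, and 7 list genes lower and 10 higher. Of the 9 enzymes, *Gls2* and *Idh1* had the fewest reads, at 114 and 143 in their lowest libraries.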
